A study of Mus musculus with 64 samples.

Results

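The genes described here are the tissue inhibitors of metalloproteinases Timp1, Timp2, Timp3 and Timp4 and the matrix metalloproteinases Mmp2, Mmp3, Mmp9 and Mmp14. They were taken by name, 8 of the 48795 gene rows of a count table from mouse hearts, after Ensembl gene IDs had been matched to gene symbols. All 8 passed the filter on low counts, which left 16417 genes to be tested. No member was at 0 in any heart. The rule that lists them uses no measured value, but they and the lists below were chosen with earlier results of these data known. Counts of them beside shares of all genes are therefore descriptions.

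Matrix metalloproteinases are zinc-dependent endopeptidases that cut collagens, laminins, fibronectin and other proteins of the extracellular matrix, and are made as inactive precursors. TIMP proteins bind the active site of these enzymes and block them, so the balance of both families sets how fast matrix is turned over. In the heart the family is known for its part in the remodelling of matrix after injury and overload, and Timp1 in particular is known as a gene induced by cytokines and in fibrosis.

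RNA came from the hearts, described as biventricular, of male C57BL/6 mice. CEK mice carry a knockout of E4BP4 that is specific to cardiomyocytes, and CON mice are their littermate controls. The gene of E4BP4 is Nfil3, and the protein is a repressor of transcription that binds DNA sites called D-boxes. Hearts were taken every 3 h at 8 zeitgeber times (ZT, by convention the hours since lights on), ZT00 to ZT21, and the labels count 4 biological replicates in each of the 16 groups, 64 libraries in all. The sources used here give neither the age of the mice nor the Cre line or floxed allele, nor whether CON mice carried either. Because whole heart tissue was sequenced, and the knockout is in cardiomyocytes, more cells of a type and more RNA per cell cannot be told apart in any result below.

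Libraries held 7.71 to 45.6 M counts on genes (median 26.7 M). Levels are given as CPM, the counts of a gene per 1000000 counts of its library after TMM scaling. Nfil3 was 4.90 to 31.8 CPM in CON hearts, median 16.2, and 0.506 to 4.75 in CEK hearts, median 1.73. It was lower in every CEK heart than in every CON heart of the same time at all 8 times (log2 fold change -3.00 ± 0.067 SE, edgeR's quasi-likelihood test adjusted p = 3.35e-39). The first principal component of all genes set 3 hearts apart, of which the first was replicate 4 of CEK at ZT00, and the others replicate 1 of CEK and replicate 3 of CON, both at ZT18. The first had the highest share of reads with no unique alignment (37.9%, median of all hearts 33.3%). The second had the lowest mitochondrial share of counts (10.5%, median 25.5%). The third was the shallowest library, at 7.71 M, with 37.8% of reads not unique. The part of these traits in the results was not tested. Results for several members are also given without these 3 hearts. Markers of cardiomyocytes, Myl2 of the ventricle among them, were abundant, with a summed 78190 to 113100 CPM over 12 markers in CON hearts. Markers of atrial cardiomyocytes also ran from 383.5 to 4429 CPM in CON and from 324.4 to 2560 CPM in CEK hearts, summed over 11 genes.

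Averaged over the 8 times, 3 of the 8 members differed between genotypes, where 12% of all tested genes did. Because members were chosen with earlier results known, this count is no test of the family. Timp1 rose in CEK hearts, Mmp14 rose slightly and Mmp9 fell, 2 higher and 1 lower beside 6.69% and 5.3% of all tested genes. The remaining 5 did not pass the threshold, an adjusted p of 0.05 over all tested genes. The median log2 fold change of the members was 0.05, beside -0.00072 for all tested genes.

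**Figure D1:**
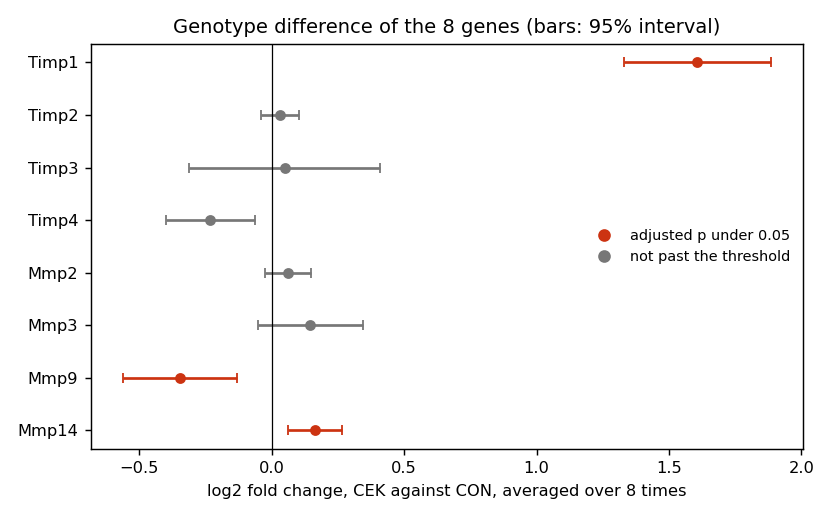
The log2 fold change of each of the 8 genes, CEK against CON, averaged over the 8 times (horizontal axis), with 95% intervals from the fit of 64 hearts; red points passed an adjusted p of 0.05. Timp1, at 1.61, stands to the right of the other 7, which lie between -0.35 and 0.16.

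Timp1 encodes a secreted inhibitor of most matrix metalloproteinases. It lies at chromosome X, 20870166 to 20874735 on the plus strand (GRCm38), inside an intron of the synapsin gene Syn1 on the opposite strand. Timp3 and Timp4 are placed in the same way, within Syn3 at chromosome 10, 86300372 to 86349506, and within Syn2 at chromosome 6, 115241892 to 115252205. Timp1 shared no exon base with Syn1, whereas Timp3 shared 1733 with Syn3 and Timp4 shared 90 with Syn2. Whether the counting used strand is not stated. It is thus not known whether reads in shared bases were counted for a gene or set aside as ambiguous. Counts of the synapsin genes were low, with medians per heart of 10.5 for Syn1, 13 for Syn3 and 78 for Syn2, and 0 of the 3 synapsin genes passed the test (Syn1 log2 fold change -0.01, adjusted p = 0.982).

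The letters upstream of the start sites are shown because the deleted protein is a DNA-binding repressor and because Timp1, Timp4, Mmp3 and Mmp14 carry the genotype and time-of-day results below. RefSeq promoter windows (GRCm38.p6) were at hand for 6 of the 8 genes; Mmp2 and Mmp9 had none. Each line gives the 250 bases before the RefSeq start, 5′ to 3′ in the direction of the gene, at chrX:20869916-20870165 on the plus strand for Timp1, chr6:115252206-115252455 on the minus strand for Timp4, chr9:7445572-7445821 on the plus strand for Mmp3 and chr14:54431348-54431597 on the plus strand for Mmp14. Capitals mark the GC-box (GGGCGG on either strand) and the AP-1 motif (TGANTCA).
Timp1: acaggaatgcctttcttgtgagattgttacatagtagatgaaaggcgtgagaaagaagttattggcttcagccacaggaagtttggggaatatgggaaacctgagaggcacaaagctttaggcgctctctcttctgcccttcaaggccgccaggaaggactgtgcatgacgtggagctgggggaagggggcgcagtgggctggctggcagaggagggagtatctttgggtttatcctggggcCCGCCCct
Timp4: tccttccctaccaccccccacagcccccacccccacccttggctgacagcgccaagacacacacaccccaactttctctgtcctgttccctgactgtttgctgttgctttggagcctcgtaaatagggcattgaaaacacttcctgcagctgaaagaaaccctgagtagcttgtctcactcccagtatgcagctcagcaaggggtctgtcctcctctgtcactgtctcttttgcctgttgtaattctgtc
Mmp3: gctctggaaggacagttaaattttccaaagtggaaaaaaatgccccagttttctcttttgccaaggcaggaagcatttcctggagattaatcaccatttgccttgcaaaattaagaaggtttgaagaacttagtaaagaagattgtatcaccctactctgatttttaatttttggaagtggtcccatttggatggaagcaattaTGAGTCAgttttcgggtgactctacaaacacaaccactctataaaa
Mmp14: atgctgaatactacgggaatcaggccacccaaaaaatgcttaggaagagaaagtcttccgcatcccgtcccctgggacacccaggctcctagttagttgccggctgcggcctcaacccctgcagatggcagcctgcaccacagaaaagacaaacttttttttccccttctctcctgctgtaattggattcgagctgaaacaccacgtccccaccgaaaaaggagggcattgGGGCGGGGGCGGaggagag

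The D-box, searched as TTATGTAA or TTACGTAA on both strands, was in 0 of the 6 windows and in 0.931% of the 32851 mouse windows of that length. The E-box CACGTG, a site of clock proteins, was also in 0 of the 6 and in 6.02% of all windows. The AP-1 motif occurred once, in Mmp3 with its first base 46 bases before the start, and in 6.75% of all windows. The GC-box was in the windows of Timp1, Timp2, Timp3 and Mmp14 and in 32.7% of all windows, and Mmp14 held 2. No match overlapped another, and the 2 GC-boxes of Mmp14 lie side by side. These are matches of letters in a short window, and a second annotated start of Timp1 lies 55 bases further downstream.

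Timp1 RNA ran from 0.614 to 3.66 CPM in the 32 CON hearts (median 1.52) and from 1.67 to 18.7 CPM in the 32 CEK hearts (median 4.18). All 32 CEK hearts were above the median of CON hearts, and 22 of them were above the highest CON heart. These levels rested on 11 to 106 reads per CON heart and 43 to 553 per CEK heart. The average log2 fold change was 1.61 ± 0.14 (SE; 95% interval 1.33 to 1.88), a fold of 3.05 (edgeR's quasi-likelihood test, adjusted p = 2.46e-13), which was place 22 by p among the genes tested.

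At ZT00 Timp1 was 0.808, 1.74, 0.614 and 1.04 CPM in the 4 CON hearts and 7.59, 4.44, 3.79 and 6.67 CPM in the 4 CEK hearts. At ZT03 it was 1.98, 1.55, 3.66 and 1.44 CPM in CON and 7.42, 18.7, 7.15 and 5.32 CPM in CEK hearts. The lowest CEK heart was above the highest CON heart at both times. That order held for 2.92% of tested genes at ZT00 and 1.71% at ZT03. The log2 fold change was 2.39 ± 0.40 at ZT00 (edgeR adjusted p = 0.00036) and 2.17 ± 0.37 at ZT03 (adjusted p = 0.000411), where 1.24% and 0.7% of tested genes passed. The value of 18.7 CPM was the highest of all 64 hearts, and without that heart the change at ZT03 was 1.63 (adjusted p = 0.025).

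At later times the means were closer. At ZT12 Timp1 was 1.32, 1.44, 2.19 and 0.729 CPM in CON hearts and 3.00, 1.93, 4.33 and 1.67 CPM in CEK hearts. Here 2 CEK hearts lay within the CON range, where 1.85% of tested genes had all CEK hearts above all CON hearts, and the log2 fold change of 0.93 ± 0.40 did not pass (adjusted p = 0.989; 0.11% of genes passed). At ZT06, CON hearts held 2.20, 1.70, 1.49 and 1.09 CPM and CEK hearts 5.92, 4.31, 4.05 and 4.13 CPM, and at ZT09 CON hearts held 2.12, 2.10, 1.89 and 1.31 CPM and CEK hearts 5.10, 4.73, 3.04 and 4.03 CPM. The CEK hearts at both times lay above all CON hearts, an order found for 2.03% of genes at ZT06 and 2.28% at ZT09. The differences did not pass the threshold (log2 1.51, adjusted p = 0.0918, with 0.189% of genes passing at ZT06, and 1.19 ± 0.38, adjusted p = 0.231, with 0.341% at ZT09).

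At ZT15 and ZT21 each CEK heart was again above each CON heart of its time. At ZT15 Timp1 was 1.00, 1.63, 1.57 and 1.03 CPM in CON and 3.47, 2.77, 4.58 and 3.05 CPM in CEK hearts. At ZT21 it was 0.978, 2.43, 1.05 and 1.19 CPM in CON and 3.89, 3.53, 3.80 and 4.23 CPM in CEK hearts. Of all tested genes, 3.47% and 1.83% showed that order. The log2 fold changes of 1.41 ± 0.40 and 1.45 ± 0.39 did not pass (adjusted p = 0.322 and 0.160; 0.11% and 0.146% of genes passed).

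At ZT18, CON hearts held 1.81, 0.927, 1.64 and 1.85 CPM of Timp1 and CEK hearts 11.6, 2.50, 4.45 and 3.15 CPM. The CEK hearts were higher without overlap, as 1.63% of genes were at that time, and the difference passed (log2 1.81 ± 0.40, adjusted p = 0.0258; 0.201% of genes passed). The heart at 11.6 CPM is CEK replicate 1, one of the 3 that stood apart. Without the 3, the value was 1.17 and was not called (adjusted p = 0.634), while at ZT00 it was 2.29 (adjusted p = 0.00032) and averaged over times 1.51 (adjusted p = 3.09e-13).

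Over the day, then, Timp1 was higher in CEK hearts at 8 of 8 times by the means, without overlap at 7 and past the threshold at 3. When each time was fitted on its own 8 libraries, none of these 3 passed (adjusted p = 0.106 at ZT00, 0.214 at ZT03 and 1.00 at ZT18), while ZT06 and ZT15 did (0.0421 and 0.0162). Whether its genotype difference changed with time was tested over all 16 groups and did not pass (edgeR adjusted p = 1; 0.00609% of genes passed, a count of 1). The larger values at ZT00 and ZT03 are thus not shown to differ from those at other times.

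**Figure D2:**
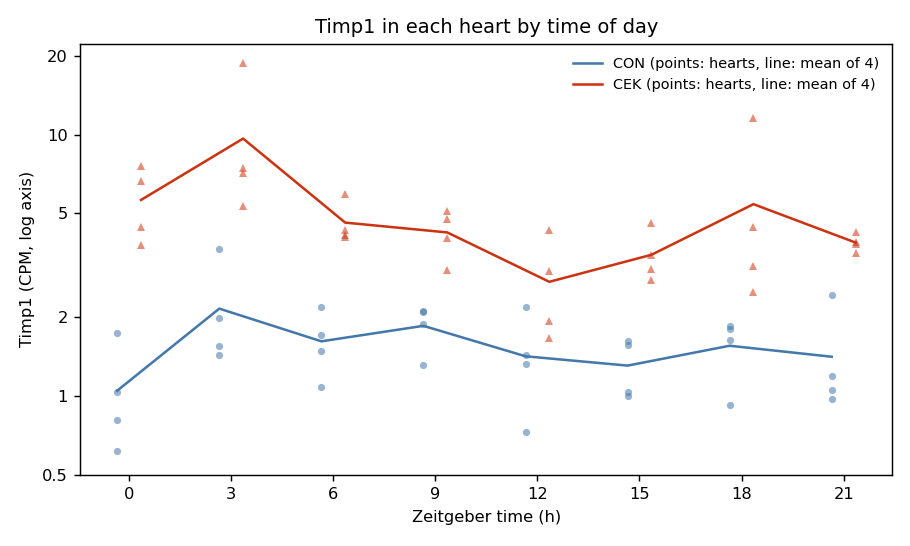
Timp1 in CPM on a log axis against zeitgeber time in hours, with circles for CON hearts, triangles for CEK hearts and lines through the means of 4. CEK triangles lie above the CON circles at each time other than ZT12, where 2 of them overlap; the highest is 18.7 CPM at ZT03.

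Among the other inhibitors, Timp2 is broadly expressed and also takes part with Mmp14 in the activation of pro-Mmp2. It was 104 to 178 CPM in CON hearts (median 129) and 115 to 164 CPM in CEK hearts (median 130). The ranges lie over each other, and the average log2 fold change was 0.03 ± 0.036 (adjusted p = 0.663). At ZT00 alone the CEK hearts (143, 140, 139 and 148 CPM) were all above the CON hearts (106, 136, 117 and 104 CPM), an order that 2.92% of tested genes showed, and the difference did not pass (log2 0.30 ± 0.10, adjusted p = 0.132).

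Timp3, which binds to the matrix and also inhibits ADAM proteinases, varied widely from heart to heart. It was 13.4 to 193 CPM in CON hearts (median 78.7) and 9.73 to 221 CPM in CEK hearts (median 93.0), and its log2 fold change was 0.05 ± 0.18 (adjusted p = 0.916). Its level followed the first principal component of all genes, with r = -0.909 over 64 hearts and -0.822 without the 3 that stood apart. Those 3 held 9.73, 11.8 and 13.4 CPM of Timp3, and the lowest of the other 61 held 28.4 CPM. That component was taken from the same counts, so this describes how Timp3 varied along with many genes.

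Timp4, the member of the family known for its high expression in heart, was 13.1 to 63.2 CPM in CON hearts (median 29.4) and 12.9 to 54.4 CPM in CEK hearts (median 26.7). Its CEK mean was the lower one at 7 of 8 times, all other than ZT06. The average log2 fold change of -0.23 ± 0.084 (95% interval -0.40 to -0.06) stayed on the other side of the threshold in edgeR (adjusted p = 0.0598). DESeq2 placed it past it (-0.24, adjusted p = 0.0427), as did voom (-0.24, adjusted p = 0.0258), so its call depended on the method. In all, 4 of 11 alternatives called it.

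Of the proteinases, Mmp2, the gelatinase A of fibroblasts and other stromal cells, was 50.2 to 70.7 CPM in CON hearts (median 56.5) and 37.4 to 96.6 CPM in CEK hearts (median 59.4). The CON range lay within the CEK range, and the log2 fold change was 0.06 ± 0.044 (adjusted p = 0.441). At ZT09 its CEK hearts (59.0, 59.0, 59.0 and 58.3 CPM) were all below the CON hearts (63.6, 63.6, 64.2 and 60.6 CPM), an order that 1.99% of tested genes showed, and the difference did not pass (log2 -0.10 ± 0.12, adjusted p = 1.00). Mmp3, the stromelysin that cuts several matrix proteins and activates other pro-MMPs, was 3.20 to 11.3 CPM in CON (median 5.21) and 2.61 to 15.1 CPM in CEK hearts (median 6.41). Its log2 fold change was 0.15 ± 0.099 (adjusted p = 0.409), and its groups overlapped at every time.

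Mmp9, the gelatinase B made by neutrophils and macrophages among other cells, was the lowest member. It was 0.729 to 3.71 CPM in CON hearts (median 1.81) and 0.531 to 2.47 CPM in CEK hearts (median 1.33). No CEK heart was above the highest CON heart and 8 of 32 were above the CON median, while the ranges overlapped at each time. The CEK mean was lower at 8 of 8 times. The fall averaged -0.35 ± 0.11 on the log2 scale (95% interval -0.56 to -0.13, edgeR adjusted p = 0.0234), on 7 to 134 reads per CON heart and 15 to 90 per CEK heart. Without CON at ZT15 replicate 3, a heart at 2.74 CPM, it was -0.29 with an adjusted p of 0.0512.

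Mmp14, a membrane-bound collagenase that activates pro-Mmp2, was 8.25 to 21.7 CPM in CON hearts (median 14.3) and 8.93 to 32.4 CPM in CEK hearts (median 15.4). Its rise was small, 0.16 ± 0.051 on the log2 scale (95% interval 0.06 to 0.27, edgeR adjusted p = 0.0222), and 5 of 32 CEK hearts were above the highest CON heart. At ZT00 it was 16.5, 17.3, 18.7 and 19.5 CPM in CON hearts and 23.9, 16.1, 21.3 and 32.4 CPM in CEK hearts, where 32.4 CPM, the highest of all hearts, is replicate 4, one of the 3 that stood apart. Without those 3 the average rise was 0.14 (adjusted p = 0.0432). At ZT03 Mmp14 was 16.4, 17.3, 21.7 and 21.2 CPM in CON and 18.1, 30.5, 25.7 and 24 CPM in CEK hearts. At both times 3 of 4 CEK hearts were above all CON hearts, as they also were at ZT06. The share of all tested genes with that order was not counted. Neither ZT00 nor ZT03 passed (log2 0.38 ± 0.14, edgeR adjusted p = 0.193, and 0.36 ± 0.14, adjusted p = 0.396). Submitter numbers are a running number in the labels. The 32 hearts with lower and the 32 with higher numbers were also fitted with 1 genotype term beside the times. The times are not spread evenly over these 2 sets, so the values weigh times differently from the average. For Mmp14 they were 0.24 and 0.11, and neither passed (edgeR adjusted p = 0.077 and 0.400). For Mmp9 the same 2 sets gave -0.22 (adjusted p = 0.463) and -0.51 (adjusted p = 0.0471), and for Timp1 1.83 and 1.45, both past the threshold.

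Hearts at 8 times also show the daily course of each gene. A cosine of 24 h was fitted for each genotype, and its amplitude is the distance from the mean to the peak on the log2 scale. In CON hearts 6 of the 8 members had such a rhythm, beside 14.6% of all tested genes, and in CEK hearts 5 of the 8, beside 15.6%. Timp4, Mmp3, Mmp9 and Mmp14 passed in both genotypes. The 3 rhythmic inhibitors of CON hearts peaked between ZT 11.9 and 14.9 h, and the 3 rhythmic proteinases between ZT 23.4 and 3.29 h.

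Timp4 in CON hearts was 16.6, 18.6, 16.4 and 19.7 CPM at ZT00 and 57.7, 50.1, 55.3 and 50.5 CPM at ZT12. In CEK hearts it was 15.3, 19.8, 16.6 and 17.9 CPM at ZT00 and 35.3, 36.6, 49.5 and 54.4 CPM at ZT12. In both genotypes all 4 hearts at ZT12 were above all 4 at ZT00. How many of all tested genes showed such an order between these times was not counted. The amplitude was 0.64 ± 0.10 with a peak at ZT 14.9 ± 0.62 h in CON (adjusted p = 2.21e-05) and 0.50 ± 0.10 with a peak at 14.9 ± 0.79 h in CEK hearts (adjusted p = 0.00129).

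Mmp14 ran the other way. In CON hearts it fell from the values of 16.4 to 21.7 CPM at ZT03 to 8.84, 9.31, 10.7 and 9.21 CPM at ZT12. In CEK hearts it was 14.6, 10.5, 10.3 and 8.99 CPM at ZT12, below all 4 CEK hearts at ZT03. That order was likewise not counted over all genes. Its amplitude was 0.47 ± 0.051 with a peak at 2.08 ± 0.41 h in CON (adjusted p = 5.03e-10) and 0.63 ± 0.050 with a peak at 2.05 ± 0.30 h in CEK hearts (adjusted p = 6.73e-15).

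Mmp3 and Mmp9 peaked within a few hours of Mmp14. For Mmp3 the amplitude was 0.41 ± 0.098 with a peak at 23.4 ± 0.92 h in CON (adjusted p = 0.00628) and 0.63 ± 0.097 with a peak at 23.9 ± 0.59 h in CEK hearts (adjusted p = 1.33e-05). For Mmp9 it was 0.43 ± 0.10 with a peak at 3.29 ± 0.92 h in CON (adjusted p = 0.00672) and 0.47 ± 0.11 with a peak at 3.11 ± 0.85 h in CEK hearts (adjusted p = 0.00315). Each gene thus kept a peak within the error of its fit in both genotypes.

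Timp3 and Timp2 passed in CON hearts, with peaks at 11.9 ± 1.1 h and 12 ± 0.91 h. The amplitude of Timp3 was 0.60 ± 0.17 in CON (adjusted p = 0.0272) and 0.47 ± 0.17 in CEK hearts, where it did not pass (adjusted p = 0.113). Without CON at ZT12 replicate 2 or replicate 3 its call in CON ended (adjusted p up to 0.0652). The level of Timp3 followed the first principal component of all genes (r = -0.909 over 64 hearts). Whether its rhythm is separate from that component was not tested. The amplitude of Timp2 was 0.15 ± 0.036 in CON (adjusted p = 0.00589) and 0.02 ± 0.036 in CEK hearts (adjusted p = 0.876). Mmp2 passed in neither (0.07 ± 0.043, adjusted p = 0.513, and 0.12 ± 0.043, adjusted p = 0.126).

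Timp1 was the member that passed in CEK hearts and not in CON hearts. Its amplitude was 0.23 ± 0.16 in CON (adjusted p = 0.583) and 0.57 ± 0.14 with a peak at 1.56 ± 0.90 h in CEK hearts (adjusted p = 0.00508). Without CEK at ZT03 replicate 2 the CEK amplitude was 0.40 and did not pass (adjusted p = 0.0604). The test of the difference in rhythm between genotypes passed for 0 of the 8 members and for 0.00609% of all tested genes. Unadjusted p-values were under 0.05 for Timp1 (0.0442), Timp2 (0.00757) and Mmp2 (0.0387), each with an adjusted p of 1.00, so rhythms of the members are not shown to differ between genotypes.

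A test of any difference among the 8 times, with no assumed shape, passed in CON hearts for Timp4 (adjusted p = 1.07e-06) and Mmp14 (adjusted p = 3.32e-07), 2 of 8 members beside 7.73% of genes. In CEK hearts it passed for Timp1 (adjusted p = 0.00492), Timp4 (adjusted p = 0.000103), Mmp3 (adjusted p = 0.00106) and Mmp14 (adjusted p = 4.18e-11), 4 of 8 beside 8.39%. That for Timp1 ended without CEK at ZT03 replicate 2 (adjusted p = 0.132). In 1 of 5 alternatives Timp3 was called in CON hearts as well (edgeR adjusted p = 0.043).

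**Figure D3:**
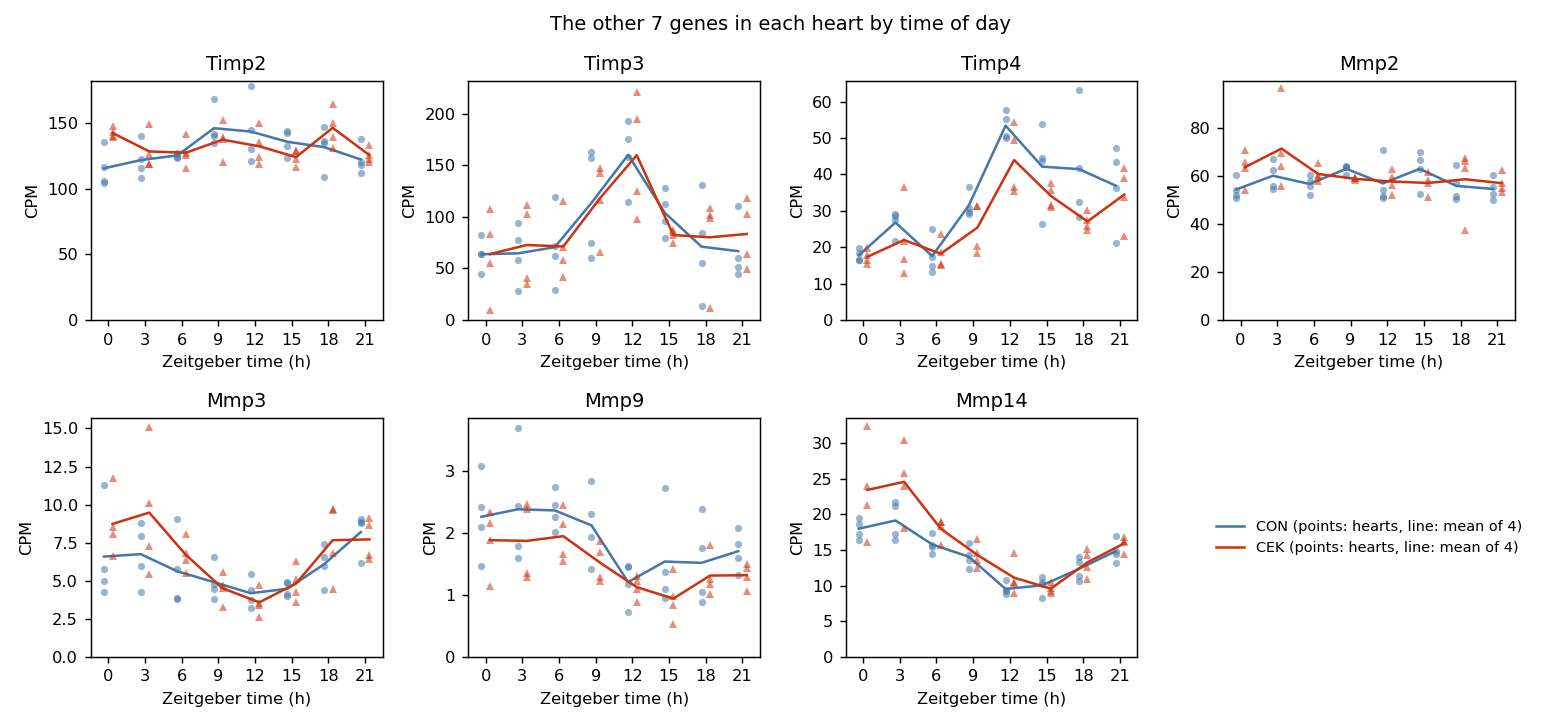
Levels in CPM of the other 7 genes against zeitgeber time in hours, with circles for CON hearts, triangles for CEK hearts and lines through the means of 4. Timp4 has its high values at ZT12 (50.1 to 57.7 CPM in CON hearts) and Mmp14 its low ones (8.84 to 10.7 CPM), while the lines of both genotypes lie near each other.

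To set the genes beside one another, levels were divided by exon length, as CPM per kb of all annotated exons merged. In CON hearts the order of the mean levels per kb was Timp2 (33.4 ± 4.27 SD, n = 32), Mmp2 (17.2 ± 1.82), Timp3 (11 ± 5.57), Timp4 (5.68 ± 2.38), Mmp3 (3.25 ± 1.14), Mmp14 (2.38 ± 0.601), Timp1 (1.74 ± 0.689) and Mmp9 (0.534 ± 0.198). Timp2 was above Mmp2 in 32 of 32 CON hearts and Timp1 above Mmp9 in 32 of 32. Neighbours between them changed places in some hearts, for example Mmp14 was above Timp1 in 24 of 32. Merged exons are longer than any single transcript, which lowers the levels of genes with many alternative exons.

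In CEK hearts Timp1, at 5.57 ± 3.57 CPM per kb, was next after Timp3 in this order and above Timp4 (4.72 ± 1.77), Mmp3 (3.69 ± 1.52) and Mmp14 (2.73 ± 0.998). It was above Timp4 in 17 of 32 CEK hearts, so these neighbours did not differ beyond their spread. The genes before it were in the same order as in CON hearts, with Timp2 at 34.1 ± 3.20, Mmp2 at 18 ± 2.69 and Timp3 at 11.2 ± 5.64 CPM per kb. Timp1 made 2.33% ± 0.913 (SD) of the summed level of the 8 genes per length in CON hearts and 6.85% ± 3.63 in CEK hearts.

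**Figure D4:**
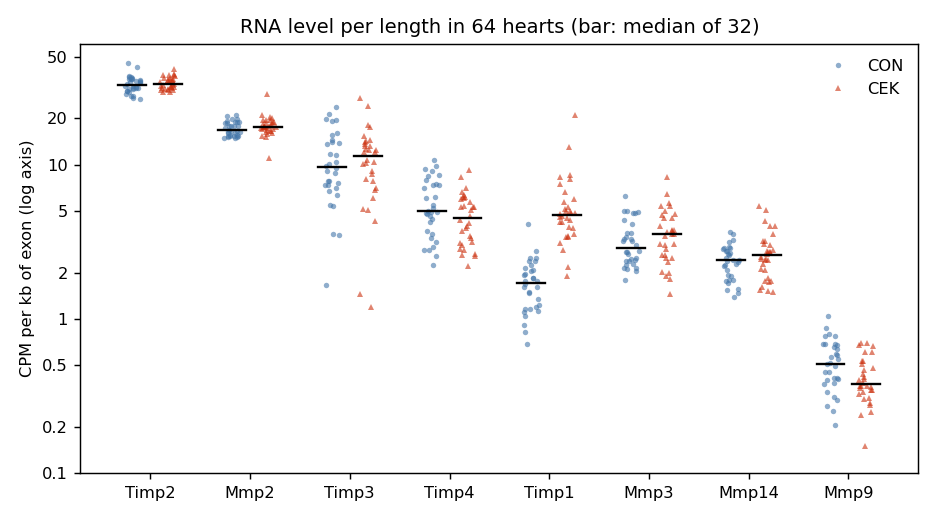
Level in CPM per kb of exon on a log axis for each gene, with 1 point per heart, circles for CON, triangles for CEK and a bar at the median of 32. Timp1 (mean 1.74 in CON, 5.57 in CEK hearts) changes its place among the genes, and Timp2 and Mmp2 lead in both genotypes.

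The ratio of the summed inhibitors to the summed proteinases, on the same scale, was 2.24 ± 0.50 (SD, n = 32) in CON and 2.29 ± 0.419 in CEK hearts. Timp2 and Mmp2 make up most of the sums, and the higher Timp1 of CEK hearts left the ratio within the spread of CON hearts. In both genotypes the ratio was highest at ZT12. In CON hearts its mean ran from 1.78 ± 0.129 at ZT00 to 3.20 ± 0.360 at ZT12, and in CEK hearts from 1.82 ± 0.220 at ZT03 to 3.01 ± 0.270 at ZT12. Over these times the summed inhibitors went from 41.7 to 67.2 CPM per kb in CON and 56.5 to 64.1 in CEK hearts. In the same order, the summed proteinases went from 23.4 to 21.1 and 31.1 to 21.3. Timp3, which followed the first principal component, went from 7.83 to 19.7 and 8.93 to 19.6. Timp2 went from 29.7 to 36.8 and 32.9 to 34.0, Timp4 from 3.02 to 9.06 and 3.73 to 7.46. Timp1 went from 1.18 to 1.60 and 10.9 to 3.08. The ranges of the ratio at its lowest and highest time did not overlap within either genotype (highest 1.92 at ZT00 and lowest 2.89 at ZT12 in CON, 2.03 at ZT03 and 2.69 at ZT12 in CEK hearts). These times were picked as the extremes of the same ratio, which favours such a gap, so it is a description. The ratio is one of RNA levels, is given with no test because the genes were chosen with results known, and says nothing of protein or enzyme activity.

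**Figure D5:**
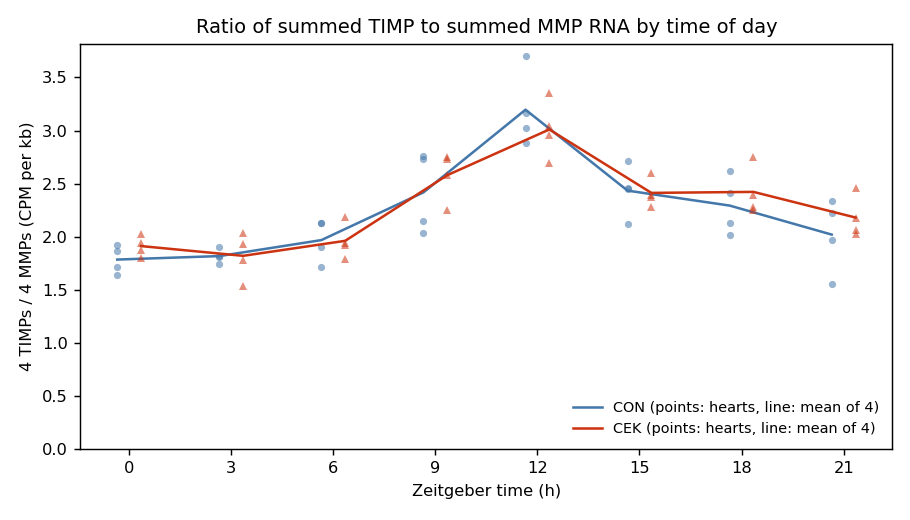
Ratio of the summed RNA of the 4 inhibitors to that of the 4 proteinases, each in CPM per kb, against zeitgeber time in hours, with circles for CON hearts, triangles for CEK hearts and lines through the means of 4. Both lines are highest at ZT12 (3.20 in CON, 3.01 in CEK hearts) and lowest at ZT00 (1.78, CON) or ZT03 (1.82, CEK).

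Genes whose level varied most like that of Timp1 among hearts of the same group were Serping1 (Pearson r = 0.718), Nbl1 (0.711), Grn (0.693), Capg (0.679), Fcrls (0.67) and Tram1 (0.668), over 64 hearts and among 11265 genes, after the mean of each of the 16 groups was taken off. Of these 6 genes, 2 passed the genotype test and 4 did not, the first 3 included. Capg, an actin-capping protein of macrophages and other cells, and Fcrls, an Fc receptor-like gene of myeloid cells, were higher in CEK hearts (log2 fold change 0.32 ± 0.065, adjusted p = 0.000297, and 0.37 ± 0.065, adjusted p = 3.05e-05). Serping1, the C1 inhibitor (0.06 ± 0.037, adjusted p = 0.364), Nbl1 (-0.03 ± 0.048, adjusted p = 0.762), Grn (0.09 ± 0.041, adjusted p = 0.193) and Tram1 (0.05 ± 0.029, adjusted p = 0.337) did not pass. Timp3 was most like Vcl (r = 0.978), Ndst1 (0.972) and Prepl (0.971), and Timp4 most like Sult1a1 (0.76), Adh1 (0.693) and Max (0.682). Mmp2 was most like Gpr153 (0.811) and the collagen gene Col6a1 (0.809), and Timp2 most like the collagen gene Col14a1 (0.808). All hearts share the libraries and their scaling, so these are descriptions.

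Between members, the same measure was highest for Timp2 with Mmp2 (r = 0.574) and Timp3 with Mmp2 (0.56). Timp1 varied with Mmp3 (0.47) and Mmp14 (0.457) and hardly with Mmp2 (0.00137). The lowest of the 28 pairs was Timp1 with Timp3 (-0.358).

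In the rest of the proteinase family, 10 of 17 further matrix metalloproteinases passed the filter on low counts, and of these 1 rose and 0 fell, beside 6.69% of all tested genes that rose and 5.3% that fell, so the count is near that of all genes. The gene that rose was Mmp12, the elastase known from macrophages, at 0.172 to 1.23 CPM in CON hearts (median 0.684) and 0.623 to 5.75 CPM in CEK hearts (median 1.89). The CEK mean was higher at 8 of 8 times, and at 7 of them the lowest CEK heart was above the highest CON heart, an order that 1.63% to 3.47% of tested genes showed at a single time. The log2 fold change was 1.63 ± 0.14 (adjusted p = 1.30e-13). Among the related ADAM and ADAMTS proteinases 2 of 22 tested genes rose, Adam8 (0.72 ± 0.099, adjusted p = 1.89e-07) and Adam12 (0.50 ± 0.15, adjusted p = 0.0181), and 1 fell, Adamts7 (-0.23 ± 0.062, adjusted p = 0.00581), which is also near the 6.69% and 5.3% of all genes. The median log2 fold change was -0.07 for the first list and 0.02 for the second.

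Of 22 tested activators and other regulators of these enzymes, 5 rose and 0 fell, beside 6.69% and 5.3% of all tested genes. Lcn2, a lipocalin that forms a complex with Mmp9 in humans, went from a median of 1.51 CPM in CON to 3.82 CPM in CEK hearts (log2 fold change 1.29 ± 0.096, adjusted p = 1.80e-15). The others were the cysteine protease gene Ctss (0.40 ± 0.068), the procollagen protease enhancer Pcolce (0.29 ± 0.052), the hyaluronan receptor Cd44 (0.28 ± 0.057) and Cd63 (0.26 ± 0.072), a tetraspanin known as a binding partner of Timp1. Their adjusted p-values were 1.94e-05, 4.24e-05, 0.000342 and 0.0116.

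Of 32 matrix substrates, 3 rose and 1 fell, counts near the 6.69% and 5.3% of all tested genes. Tnc, tenascin C, rose by 1.41 ± 0.15 (adjusted p = 1.99e-10), osteopontin Spp1 by 0.86 ± 0.18 (adjusted p = 0.000642) and the fibrillar collagen gene Col3a1 by 0.36 ± 0.079 (adjusted p = 0.000657), all on the log2 scale. The laminin gene Lama2 changed by -0.16 ± 0.048 (adjusted p = 0.0142). The median log2 fold change of the list was 0.08.

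Of 30 tested cytokines, receptors and transcription factors that are known to act on TIMP and MMP genes, 5 rose and 1 fell, beside 6.69% and 5.3% of all tested genes. Socs3, the feedback inhibitor of cytokine signalling, rose by 0.45 ± 0.081 (adjusted p = 3.96e-05), Runx1 by 0.30 ± 0.065 (adjusted p = 0.000833), Tgfb2 by 0.26 ± 0.047 (adjusted p = 4.40e-05), Junb by 0.24 ± 0.073 (adjusted p = 0.0213) and Tnfrsf1a by 0.15 ± 0.035 (adjusted p = 0.00224). The receptor Lifr changed by -0.18 ± 0.038 (adjusted p = 0.000404). Tgfb1 and Il1b did not pass (0.11, adjusted p = 0.0718, and 0.30, adjusted p = 0.290).

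Markers of several cell types moved with the genotype beside Timp1, and the counts below stand beside 6.69% of all tested genes higher and 5.3% lower. These lists too were chosen with earlier results of these data known. Of 12 macrophage and myeloid markers 10 rose and 0 fell, with none at 0 in all hearts, and their sum was 247.1 to 547.5 CPM in CON and 293.7 to 650.5 CPM in CEK hearts. Of 7 tested monocyte markers 3 rose, among them Ccr2 (1.09 ± 0.099, adjusted p = 1.50e-12), and the sum of the list was 32.1 to 97.9 CPM in CON and 40.5 to 117 CPM in CEK hearts. Most of that sum was fibronectin, Fn1 (mean 50.8 CPM in CON and 55.2 CPM in CEK hearts), so it does not measure monocytes. Fn1 is also in the lists of activated fibroblasts and matrix substrates and did not pass (edgeR adjusted p = 0.435). The median log2 fold change was 0.29 for the first list and 0.33 for the second, beside 1.61 for Timp1.

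Of 12 markers of activated fibroblasts 5 rose, Tnc being one of them, and the sum was 200.8 to 412 CPM in CON and 238.9 to 642.9 CPM in CEK hearts. The largest part of that sum was Acta2 (mean 115 CPM in CON and 165 CPM in CEK hearts), which rose and is also in the smooth muscle list. Of 12 fibroblast markers 2 rose and 1 fell. Of 11 atrial markers 8 fell, with the sums given above. Of 12 cardiomyocyte markers, the cell type of the knockout, 1 rose (Mybpc3, 0.21 ± 0.038) and 3 fell (Myh6, -0.15 ± 0.039, Actn2, -0.16 ± 0.023, and Atp2a2, -0.18 ± 0.061). Of smooth muscle and pericyte markers 2 of 12 rose, of Schwann cell and neuron markers 2 of 9, of lymphocyte markers 1 of 9 and of epicardial and mesothelial markers 1 of 11, the last list having a median log2 fold change of -0.62. Of 12 endothelial markers 1 fell, and 0 of 11 adipocyte and 0 of 7 red blood cell markers passed. Neutrophil markers, of which 3 of 12 passed the filter, had 0 calls, beside the fall of Mmp9. The part of any of these cell types in the results for Timp1, Mmp9 and Mmp14 was not tested.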

How the data were processed

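Mouse heart RNA from 64 hearts was sequenced. The authors deposited whole-number counts of reads per gene; per the submitters' processing notes they used bcl2fastq 2.18.0.12, STAR 2.6.1d and HTSeq 0.11.1 with GRCm38. No source used here gives the annotation or strand setting. Of 48795 gene rows, 48435 matched GENCODE M21 by ID. The 5 summary rows, such as reads in no feature (median 3.56% of all) and ambiguous reads (median 3.20%), stayed out. These shares were highest in CEK at ZT12 replicate 1 (12.6% and 12.5%), followed by CON at ZT15 replicate 1 (6.53% and 5.92%). The former heart held the 221 CPM of Timp3, 35.3 CPM of Timp4 and 14.6 CPM of Mmp14 given above.

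A low-count filter (filterByExpr with the 16 groups; minimum count 10, total 15) and TMM scaling preceded tests with edgeR 4.0.16 (quasi-likelihood, R 4.3.3). The genotype and time contrasts came from 16 group means (48 residual degrees of freedom), and rhythms from cosine and sine terms of 24 h for each genotype (58). P-values were adjusted over 16417 genes (Benjamini-Hochberg) and called under 0.05. Log2 CPM used a prior count of 2.

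Members and lists were chosen with earlier results of these data known. Named are all members, up to 5 called genes of each list with the smallest p, the genes most like a member (3, for Timp1 6; mean log2 CPM of at least 1, fewer printed for some), Nfil3, and Syn1, Tgfb1 and Il1b, chosen after their values were seen. Of 96 pairs of libraries within a group, none was a copy of another: each pair differed by at least 4.63 times its sampling noise. Alternatives were DESeq2 1.42.0, limma 3.58.1 (voom), RLE scaling, other filters, the replicate block, the submitter number as a covariate, libraries of 1 time, each library left out, and, added after the data were seen, fits without the 3 hearts that stood apart and within either 32 submitter numbers.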

Additional observations from a re-analysis of the deposited data

Results flagged for a closer look

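The value of 1 heart in a group of 4 was compared with the other 3 for each member and group, and a heart was listed where its gap to the nearest other, divided by the range of the group, was above Dixon's 95% critical value. This was met by 7 of 128 groups, and chance alone gives about 1 in 20.

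For Timp1 these were CEK at ZT03 replicate 2 (18.7 CPM, the others 5.32 to 7.42), CEK at ZT06 replicate 1 (5.92 CPM, the others 4.05 to 4.31) and CON at ZT21 replicate 2 (2.43 CPM, the others 0.978 to 1.19). The first of these carries the rhythm call of Timp1 in CEK hearts. CEK at ZT18 replicate 1, one of the 3 hearts that stood apart, was low for Timp3 (11.8 CPM, the others 99.1 to 109) and for Mmp2 (37.4 CPM, the others 63.5 to 67.5). Mmp2 was 58.3 CPM in CEK at ZT09 replicate 4, where the others were 59.0 CPM, so this gap is small in size. Mmp3 was 6.14 CPM in CON at ZT21 replicate 1, the others 8.78 to 9.03 CPM. The cause of these single values was not tested.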

How the results depend on the processing

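Values of members were recomputed 4528 times over all alternatives; 4483 had the direction and the side of the threshold of the report, 17 lost a call, 25 gained one and 3 had the other sign. The genotype difference of Timp1 was called in each of the 11 alternatives to the average over times (log2 1.45 to 1.83). It was also called without any 1 library (1.52 to 1.66). In the 32 hearts with higher submitter numbers, Timp2, Timp3 and Mmp2 had the other sign (-0.041, -0.068 and -0.027), none called there or in the report.

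For the genotype difference, 740 and 729 genes were called in the hearts with lower and with higher submitter numbers. The average over times in all hearts called 1968. In the former set 1 member was called, against 3. Both sets have 32 hearts in place of 64 and 1 genotype term in place of the average. Summed over single times there were 498 calls, a gene counting at each time it was called, 313 with no filter, 758 with DESeq2 and 77 when each time was fitted on its own 8 libraries, which ended the calls of Timp1 at ZT00, ZT03 and ZT18 (adjusted p = 0.106, 0.214 and 1.00) and gave calls at ZT06 and ZT15 (0.0421 and 0.0162). At ZT06 DESeq2 (0.0300) and the fit without the 3 hearts that stood apart (0.0339) also called Timp1. Without CEK at ZT18 replicate 1 its value there was 1.15 (adjusted p = 0.471), and the call ended without any 1 CON heart of ZT18. With voom 4419 genes were rhythmic in CON and 3911 in CEK hearts, against 2393 and 2560. A changed rhythm was called for 1 gene, 10 with no filter, 2 with voom and 1 to 2 without 1 library; a genotype difference that changed with time for 1, and 1 to 2 without 1 library. The cause was not tested.

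The labels do not say that replicate numbers pair hearts, and not every pair passed the check: r of same-numbered CON and CEK hearts of a time was over 0.1 in 19 of 32 pairs (-0.39 to 0.476), with a mean over all same-numbered hearts of 0.0206 against -0.0053 for other numbers. Of 64 hearts, 27 correlated best with their own number. Whether this count exceeds chance, or reflects a pairing that the design does not state, was not tested. With the replicate block 1980 genes and 4 members were called on average, Timp4 being added (-0.23, adjusted p = 0.0435), as it was in 11 of 64 fits without 1 library. RLE scaling gave 1060 genes higher and 917 lower, against 1098 and 870. Timp1 and Mmp9 rest on few reads in shallow libraries (at least 11 and 7), which limits their single-time values.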
